A study of Homo sapiens with 24 samples.

Results

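Collagens and the enzymes that modify them were followed across 3 human cancer cell lines. The set holds 44 genes of the 51715 in the count files, chosen by symbol: 32 collagen chains, 11 hydroxylases and lysyl oxidases, and the chaperone SERPINH1. The lines were U-2 OS, an osteosarcoma line, U-251MG, a glioblastoma line, and A-431, an epidermoid carcinoma line. From each line, 4 libraries of polyadenylated RNA were made from whole cells (total RNA) and 4 from a cytoplasmic extract (cytoplasmic RNA), with no treatment named. By the methods of the study, the replicates of a line were biological ones, and p-values measure the spread between them. The question was how total and cytoplasmic RNA differ in each line. Here it is asked for the collagen genes, beside how they differ between the lines.

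Collagens are secreted proteins whose chains wind around each other into helical trimers. The fibrillar types (I, II, III, V, XI) give tissue its tensile strength, type IV forms the sheet of basement membranes under epithelia and around vessels, type VI forms beaded filaments near cells, and several further types link fibrils or anchor epithelia. Before export, prolyl 4-hydroxylases and lysyl hydroxylases modify the chains in the endoplasmic reticulum, where SERPINH1 (HSP47) holds the folded trimer, and lysyl oxidases cross-link the deposited collagen outside the cell. Type I collagen, made of COL1A1 and COL1A2 chains, is the main product of bone-forming cells and fibroblasts, while COL17A1 and type VII collagen belong to the attachment of epidermal cells.

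Levels are given as RPKM, which here are CPM (counts scaled to the gene counts of the library after TMM, an edgeR correction for RNA composition) divided by the length of the main GENCODE transcript in kilobases. Libraries held 19918911 to 32394170 gene counts, so that COL1A1 at a mean of 2.15 RPKM in U-251MG total RNA rested on 249 to 413 counts per library. The U-2 OS cytoplasmic library 13 had no entry in the read table of the study and was left out of the tests, which leaves 23 libraries and 3 in that group. Of 32 members at 1 RPKM or more in U-2 OS it was above the range of the 3 used cytoplasmic libraries in 19, below in 7 and within in 6. With it, 5 members were called between the U-2 OS fractions, as without it. Markers of squamous epithelium summed to 18410 to 21100 CPM in A-431 total RNA, with none of 13 at 3 counts or fewer, against 221 to 324 for U-251MG and 899.9 to 969.8 for U-2 OS. Glial and neural markers summed to 6710 to 7466 in U-251MG total RNA, to 2054 to 2149 for U-2 OS and to at most 5.22 for A-431. Of this list, OLIG2 was at or under 3 counts in U-251MG. The osteoblast list was higher in U-251MG (2256 to 2513) than in U-2 OS (1576 to 1648), where the defining markers SP7 and IBSP were at or under 3 counts. Stromal markers were nearly absent from A-431 (0.376 to 0.637, with 6 of 7 at or under 3 counts). They summed to 259 to 293 for U-2 OS and 157 to 186 for U-251MG, where DCN, LUM and TCF21 were at or under 3 counts.

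The nuclear RNA markers MALAT1 and NEAT1 went against the fraction labels. Their sum was higher in the libraries labelled cytoplasmic in every line, 665 to 818 against 186 to 339.9 CPM in A-431, 1035 to 1391 against 235 to 644 for U-251MG and 647 to 889 against 398 to 596 for U-2 OS. The study checked its extracts by capillary electrophoresis, kept cytoplasmic samples without the nuclear RNA peak of total RNA, and removed a U-2 OS sample that showed it. Every difference between fractions below is one between libraries labelled total and libraries labelled cytoplasmic. The 12 total RNA libraries and 3 cytoplasmic libraries were on flow cell A, and the other 8 cytoplasmic libraries with a read table entry, all 4 of A-431 among them, on flow cell B.

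Type IV collagen genes lie in head-to-head pairs, and the sequence between the members of the pair that all 3 lines expressed is shown first, since the results below turn on COL4A1 and COL4A2. In RefSeq on GRCh38.p14, 126 bases lie between their closest annotated start sites on chromosome 13. The full spans of COL4A1 and COL4A2 given below overlap, so this interval belongs to those start sites and not to every transcript. The intervals of the other pairs, taken in the same way, are 418 bases for COL4A4 and COL4A3 on chromosome 2 and 379 bases for COL4A6 and COL4A5 on chromosome X. For these, the 250 bases upstream of the more highly expressed gene in U-2 OS total RNA are given. Capitals mark matches to the GC box GGGCGG and the CCAAT box CCAAT on either strand. The first run is chr13:110307158-110307283 on the COL4A2 strand, the second chr2:227164206-227164455 on the COL4A4 strand and the third chrX:108439588-108439837 on the COL4A5 strand.
COL4A1-COL4A2 interval: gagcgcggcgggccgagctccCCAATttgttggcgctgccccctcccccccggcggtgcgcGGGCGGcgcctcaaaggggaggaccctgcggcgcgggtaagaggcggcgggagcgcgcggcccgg
COL4A4 upstream: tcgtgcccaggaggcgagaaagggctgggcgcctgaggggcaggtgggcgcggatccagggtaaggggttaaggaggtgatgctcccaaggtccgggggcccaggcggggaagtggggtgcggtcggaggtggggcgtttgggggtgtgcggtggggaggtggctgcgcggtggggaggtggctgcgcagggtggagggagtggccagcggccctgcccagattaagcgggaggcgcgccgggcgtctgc
COL4A5 upstream: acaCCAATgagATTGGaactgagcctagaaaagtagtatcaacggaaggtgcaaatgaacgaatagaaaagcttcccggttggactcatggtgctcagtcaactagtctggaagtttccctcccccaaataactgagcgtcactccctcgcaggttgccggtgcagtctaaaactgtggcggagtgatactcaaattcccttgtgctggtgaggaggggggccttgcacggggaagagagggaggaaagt
The shared interval of COL4A1 and COL4A2 was 80.2% G and C and held 1 GC box and 1 CCAAT box. Of 35116 promoters, 34.6% held a GC box and 21.1% a CCAAT box in the 126 bases before their start. The COL4A4 window, at 72.8% G and C, held neither, and the COL4A5 window, at 51.2%, held 2 CCAAT boxes and no GC box. In 250 bases, 32.0% of promoters held a CCAAT box and 42.6% a GC box. None of the 3 windows held the TATA box TATAAA on either strand, which 10.7% of promoters hold in 250 bases and 5.9% in 126. A match is a description of the letters and not a site of binding.

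The members were abundant in U-2 OS and U-251MG and much lower in A-431. Summed over the 44 genes, total RNA held 5254 ± 266 CPM in U-2 OS, 5630 ± 408 for U-251MG and 1320 ± 32.9 for A-431 (SD, n = 4 each). The number of members at 10 RPKM or more was 22 for U-2 OS, 21 for U-251MG and 10 for A-431, and the number under 0.1 RPKM was 4, 6 and 17. Chains summed to 3664 ± 242, 3523 ± 317 and 504 ± 15.5 CPM, and enzymes with the chaperone to 1590 ± 30.4, 2107 ± 109 and 816 ± 27.8. In these bulk libraries, fewer expressing cells and less RNA per cell cannot be told apart.

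**Figure D1:**
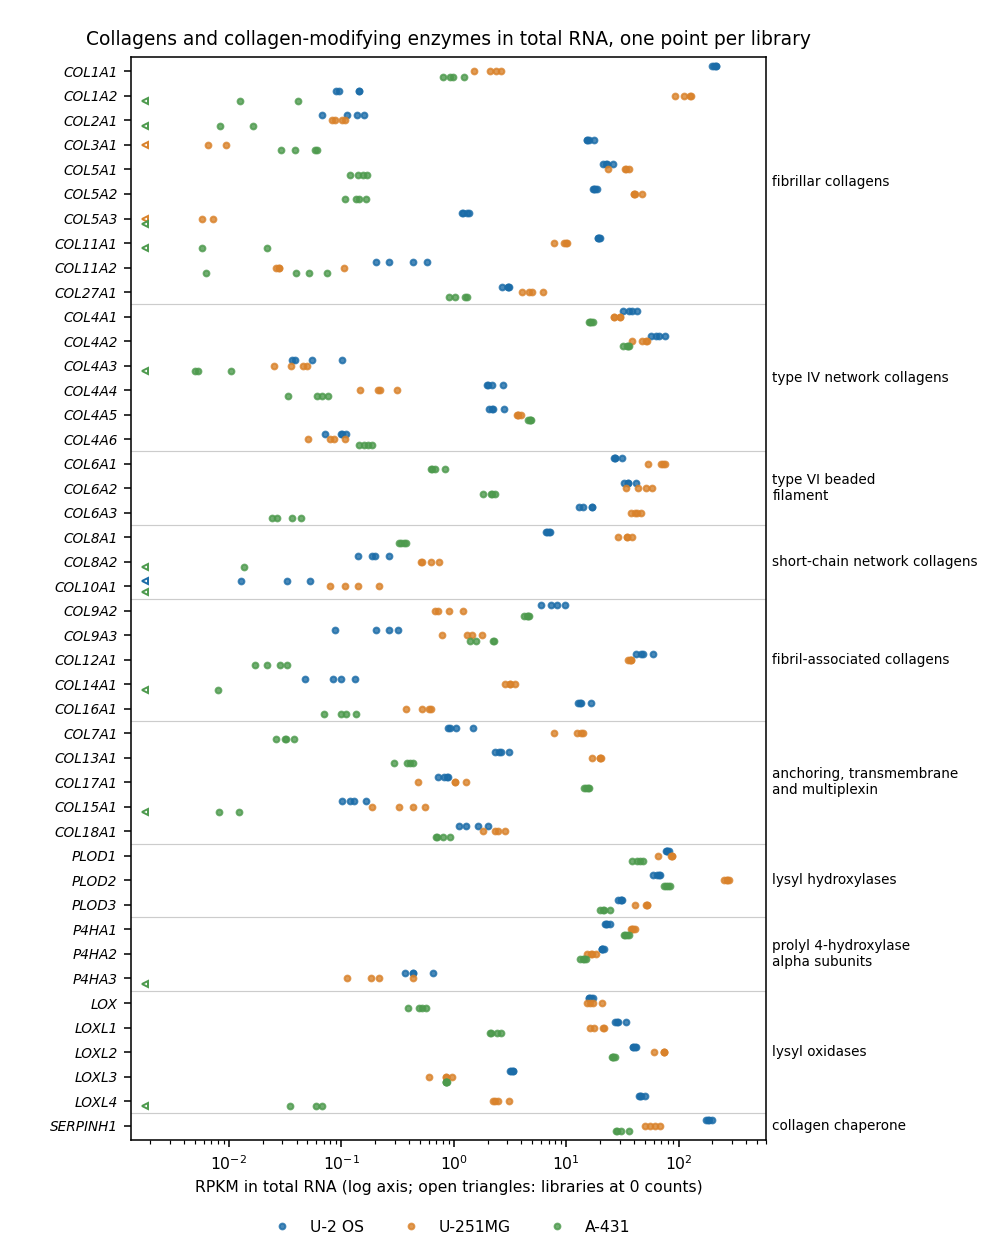
RPKM of each of the 44 members in total RNA (log axis), one point per library and 4 libraries per line, with genes grouped by role and open triangles for libraries at 0 counts. In A-431, 17 members had a mean under 0.1 RPKM, while each lysyl hydroxylase had a mean of 21.95 RPKM or more in all 3 lines.

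Between lines, a member was called when it differed by at least 2-fold with an adjusted p under 0.001 (edgeR's quasi-likelihood test, Benjamini-Hochberg adjustment over all genes tested). Beside a log2 ratio, SE is the size of the ratio divided by the square root of the test's F value. It can lie below counting error alone where a group held few counts, as for genes near 0 in A-431. Of 42 members tested in total RNA, 32 were called between A-431 and U-2 OS, 3 higher and 29 lower in A-431, where 38.8% of all genes were called, 16.4% higher and 22.4% lower. The median log2 ratio was -3.86 over the members and -0.07 over all genes. Against U-251MG, 31 of 42 members were called, 4 higher and 27 lower in A-431, where 31% of all genes were called, 16.4% higher and 14.6% lower, with medians of -2.18 and 0.00. Of the 4 higher, COL3A1 (26 counts in A-431 against 2 for U-251MG) and COL4A6 (0.166 against 0.0815 RPKM) were not called in cytoplasmic RNA. The COL4A6 call was lost in most repeats under other settings. Between U-251MG and U-2 OS, 23 of 42 were called, 12 higher and 11 lower in U-251MG, against 35.7% of all genes, with medians of 0.15 and -0.09. Members at 0 counts in a line, set at the bound given by 3 counts, were 2, 1 and 0 of the 42 in these comparisons. The medians stayed at -3.86, -2.18 and 0.15, which so few replaced values could hardly move. Unrelated lines differ in many genes, and the chains and enzymes below are described for their levels rather than for passing this test. The 3 comparisons share their groups of libraries and are not independent of each other.

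Most calls were shared by the cytoplasmic libraries. For A-431 against U-2 OS, 32 of 43 members were called (2 higher and 30 lower; 39% of all genes were called), and 29 of these were called in the same direction in both fractions. For A-431 against U-251MG, 33 of 43 were called (2 higher and 31 lower; 32% of all genes), 29 of them in both fractions. For U-251MG against U-2 OS, 27 of 43 were called (14 higher and 13 lower; 35% of all genes), 22 of them in both fractions, and no member was called in opposite directions. The median log2 ratios over the members were -4.13, -2.47 and 0.07, and over all genes -0.03, -0.01 and -0.04.

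Among the fibrillar collagens, the chains of type I were split between the lines. COL1A1, at chr17:48261462-48278993 on GRCh37, measured 2.63, 2.37, 2.09 and 1.52 RPKM for U-251MG, 1.24, 0.977, 0.808 and 0.919 for A-431 and 215, 205, 217 and 196 for U-2 OS in the total RNA libraries. In the cytoplasmic libraries it measured 1.36, 1.497, 1.33 and 1.75 RPKM for A-431, 4.33, 3.78, 3.25 and 3.86 for U-251MG and 239, 256 and 238 for U-2 OS. U-2 OS was far above the other lines in every library, and U-251MG lay above A-431 without overlap. The log2 ratio of U-251MG to U-2 OS in total RNA was -6.61 ± 0.16 SE (edgeR, adjusted p = 6.18e-15), and that of A-431 to U-251MG -1.10 ± 0.16 SE (edgeR, adjusted p = 1.58e-05). COL1A2, the partner chain of COL1A1 in type I trimers, at chr7:94024207-94060539, gave the reverse order in U-2 OS and U-251MG. Its total RNA libraries held 0 to 0.0412 RPKM for A-431, 0.0895 to 0.144 for U-2 OS and 113, 129, 128 and 93.2 for U-251MG. The cytoplasmic libraries held 159.7, 147, 124 and 135 RPKM for U-251MG, 0 to 0.0674 for A-431 and 0.0511 to 0.174 for U-2 OS. The gene was high in U-251MG alone among the 3 lines, with a log2 ratio to U-2 OS of 9.92 ± 0.19 SE (edgeR, adjusted p = 4.47e-17). A-431 held at most a few counts of COL1A2 (0 to 5 per total RNA library), and its lower level than in U-2 OS was called in total RNA at -3.03 ± 0.62 SE (edgeR, adjusted p = 0.00031). The call was lost without the U-2 OS total RNA library 2 or 3 or the A-431 total RNA library 11, and was not made in the cytoplasmic libraries, at -1.59 ± 0.65 SE (edgeR, adjusted p = 0.0402). U-2 OS and U-251MG each held abundant reads of a type I chain and few of its partner. In U-251MG, where both chains reached 1 RPKM, the ratio of COL1A1 to COL1A2 was 0.0186 ± 0.00329 in total RNA and 0.0269 ± 0.00131 in cytoplasmic RNA (SD, n = 4). The fractions did not overlap in this ratio (p = 0.0286 by an exact two-sided permutation test, which 4 against 4 libraries cannot go below, and 0.0531 adjusted over 13 chain ratio tests).

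**Figure D2:**
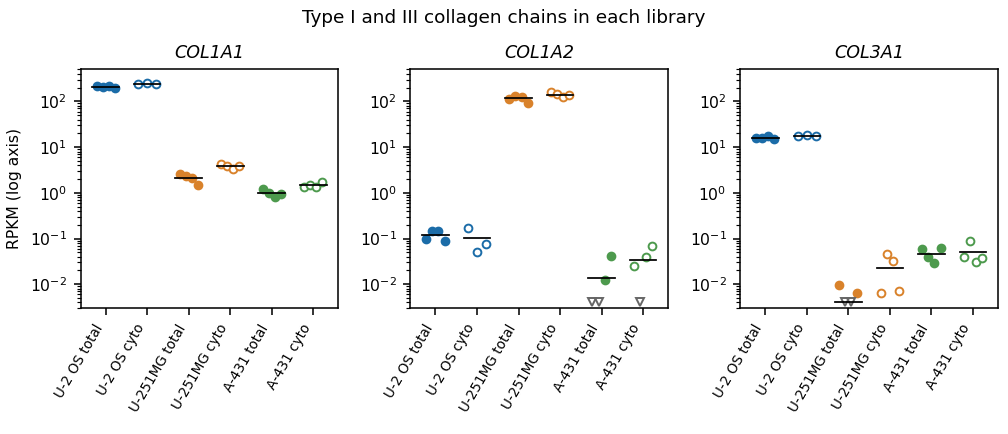
RPKM (log axis) of COL1A1, COL1A2 and COL3A1 by line and fraction, one point per library (filled for total, open for cytoplasmic RNA, triangles for 0 counts) with black lines at the group means. COL1A1 was at 196 RPKM or more in every U-2 OS library and at 4.33 or less elsewhere, and COL1A2 was at 93.2 RPKM or more in every U-251MG library and near 0 elsewhere.

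COL3A1, the chain of type III fibrils, was found in U-2 OS and nearly nowhere else. It measured 0.029 to 0.0609 RPKM for A-431, 0 to 0.00947 for U-251MG and 16.1, 15.4, 17.8 and 15.4 for U-2 OS in total RNA. In cytoplasmic RNA it measured 0.0311 to 0.0896 RPKM for A-431, 17.1, 18.3 and 17.7 for U-2 OS and 0.00659 to 0.0464 for U-251MG. The 4 U-251MG total RNA libraries held 2 counts together, and the ratio of U-2 OS to U-251MG was 4395 with a counting interval of 1216 to 36300 (95%, exact binomial). Intervals of this kind cover counting error only. COL3A1 in A-431 lay below U-2 OS by a log2 ratio of -8.42 ± 0.15 SE (edgeR, adjusted p = 4.45e-25).

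The type V chains, which sit inside type I fibrils and set their width, were shared by U-2 OS and U-251MG. COL5A1 measured 33.4, 34.1, 35.9 and 23.6 RPKM for U-251MG, 0.119 to 0.168 for A-431 and 22.9, 22.5, 25.9 and 21.4 for U-2 OS in total RNA. The cytoplasmic libraries of this gene held 0.117 to 0.189 RPKM for A-431, 45.1, 40.9, 35.7 and 37.9 for U-251MG and 25.5, 26.9 and 25.1 for U-2 OS. The lines with the gene on overlapped in total RNA, and A-431 fell below both, by a log2 ratio of -7.29 ± 0.16 SE (edgeR, adjusted p = 4.48e-18) against U-2 OS. COL5A2 measured 0.107 to 0.165 RPKM for A-431, 17.6, 17.2, 18.9 and 17.9 for U-2 OS and 40.4, 47.1, 41.2 and 40.3 for U-251MG in total RNA. Cytoplasmic RNA gave 38.6, 41.1, 39.7 and 40.05 RPKM for U-251MG, 0.0817 to 0.15 for A-431 and 19.2, 19.5 and 20 for U-2 OS. Here U-251MG was above U-2 OS without overlap, at 1.23 ± 0.07 SE (edgeR, adjusted p = 6.66e-15), and A-431 again held almost none. COL11A1, a related chain known best from cartilage, was highest in U-2 OS. It measured 0 to 0.022 RPKM for A-431, 9.56, 9.93, 10.1 and 7.72 for U-251MG and 19.2, 19.7, 20 and 19.2 for U-2 OS in total RNA. In the cytoplasmic extract the values were 0 to 0.00935 RPKM for A-431, 18.6, 19.8 and 20.7 for U-2 OS and 11.2, 8.93, 8.01 and 8.53 for U-251MG. U-251MG was below U-2 OS by a log2 ratio of -1.07 ± 0.09 SE (edgeR, adjusted p = 9.93e-11), close to the 2-fold limit, and without the U-251MG total RNA library 8 the value was -0.99 and no longer called.

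COL27A1, a further fibrillar chain, was low in each line. It measured 6.25, 4.63, 4.92 and 4.05 RPKM for U-251MG, 1.02, 1.27, 1.32 and 0.909 for A-431 and 2.71, 3.05, 3.08 and 3.02 for U-2 OS in total RNA. Libraries labelled cytoplasmic had 1.85, 1.81, 2.16 and 1.48 RPKM for A-431, 8.63, 7.29, 7.62 and 7.499 for U-251MG and 3.18, 3.58 and 2.87 for U-2 OS. The order was U-251MG, U-2 OS, A-431 with no overlap in total RNA, and A-431 was lower than U-251MG by a log2 ratio of -2.09 ± 0.13 SE (edgeR, adjusted p = 1.08e-12). The other 3 fibrillar members were low or absent. COL5A3 averaged 1.26 ± 0.0861 RPKM in U-2 OS total RNA but had 0 counts in all 8 A-431 libraries, so that U-2 OS was at least 272-fold higher in total RNA (against 3 counts over the A-431 libraries). COL2A1, the cartilage chain, averaged at most 0.169 RPKM in any group and COL11A2 at most 0.690 RPKM, in U-2 OS cytoplasmic RNA.

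COL4A1 and COL4A2 of type IV were the chains with the most reads in A-431. COL4A1, at chr13:110801310-110959504 on GRCh37, measured 17.2, 16.1, 16.3 and 16.7 RPKM for A-431, 38.5, 36.3, 42.7 and 31.9 for U-2 OS and 26.9, 30.2, 30.1 and 26.6 for U-251MG in total RNA. The other fraction held 37.1, 31.2, 29.02 and 29.2 RPKM for U-251MG, 12.5, 11.6, 12.4 and 12.96 for A-431 and 41.2, 43.1 and 41.5 for U-2 OS. COL4A2, beside it at chr13:110958159-111165556, measured 35.5, 36.1, 32.02 and 34.6 RPKM for A-431, 47.1, 51.6, 52.9 and 38.6 for U-251MG and 66.6, 63.2, 75.03 and 56.3 for U-2 OS in total RNA. Values in cytoplasmic RNA were 28.7, 26.96, 29.5 and 30.6 RPKM for A-431, 78.9, 82.98 and 77.1 for U-2 OS and 70.8, 68.99, 55.6 and 59.2 for U-251MG. Both genes were highest in U-2 OS and lowest in A-431, with no overlap between the lines in either fraction. The spread between lines was small next to that of the fibrillar chains. COL4A1 was lower in A-431 than in U-2 OS by a log2 ratio of -1.15 ± 0.07 SE (edgeR, adjusted p = 2.38e-13), and COL4A2 by -0.90 ± 0.09 SE (edgeR, adjusted p = 1.21e-08), the latter under the 2-fold limit. The chains are built into trimers with COL4A1 in excess, but the reads held less COL4A1 than COL4A2 per kilobase in every library. The ratio of COL4A1 to COL4A2 was 0.572 ± 0.00503 for U-2 OS, 0.603 ± 0.0571 for U-251MG and 0.481 ± 0.0265 in A-431 total RNA (SD, n = 4). A-431 lay below both other lines without overlap (exact permutation p = 0.0286 each, 0.0531 adjusted), and U-2 OS and U-251MG overlapped (exact permutation p = 0.286). In cytoplasmic RNA the ratio was 0.498 ± 0.0332 for U-251MG and 0.428 ± 0.00638 for A-431 (SD, n = 4), each below total RNA without overlap but not past an adjusted threshold of 0.05 (exact permutation p = 0.0286 each, 0.0531 adjusted). In U-2 OS cytoplasmic RNA it was 0.527 ± 0.0101 (SD, n = 3), also below total RNA without overlap (exact permutation p = 0.0571, which 4 against 3 cannot go below, 0.0929 adjusted). Together COL4A1 and COL4A2 made up 21.5% ± 0.732 and 44.2% ± 1.08 (SD, n = 4) of all counts on the collagen genes in A-431 total RNA.

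The remaining type IV chains were minor. COL4A5, the chain changed in X-linked Alport syndrome, was called higher in A-431 than in U-2 OS in total RNA but not in cytoplasmic RNA, with 2.33 ± 0.32 RPKM in U-2 OS, 3.75 ± 0.131 for U-251MG and 4.77 ± 0.126 in A-431 total RNA, and a log2 ratio of A-431 to U-2 OS of 1.06 ± 0.09 SE (edgeR, adjusted p = 3.65e-11). Its head-to-head neighbour COL4A6 averaged at most 0.214 RPKM in any group. COL4A4 averaged 2.23 ± 0.357 RPKM in U-2 OS total RNA and 0.223 ± 0.0686 for U-251MG, while its neighbour COL4A3 averaged at most 0.089 RPKM in any group. Of the 3 head-to-head pairs, only COL4A1 and COL4A2 had levels of the same order in all 3 lines.

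**Figure D3:**
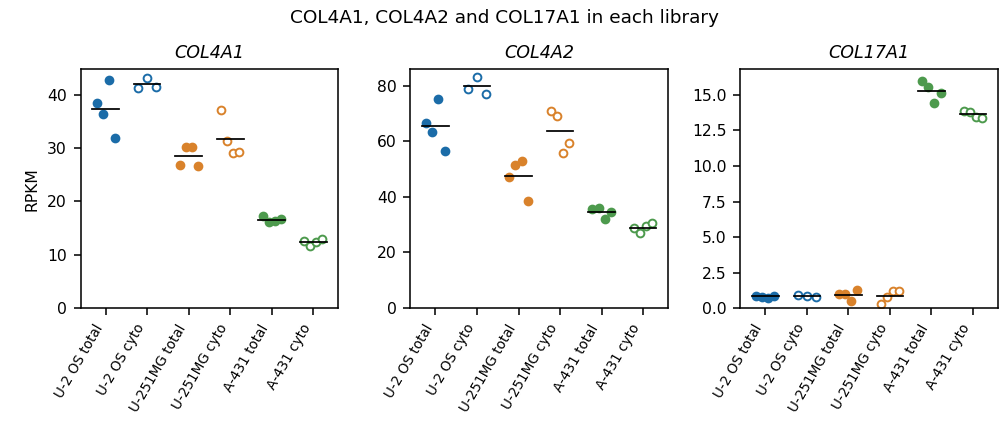
RPKM (linear axes from 0) of COL4A1, COL4A2 and COL17A1 by line and fraction, one point per library (filled for total, open for cytoplasmic RNA) with black lines at the group means. In A-431 the total RNA libraries lay above the cytoplasmic ones for all 3 genes, and COL17A1 averaged 15.3 RPKM in A-431 total RNA against 0.825 for U-2 OS.

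The type VI chains were high in U-251MG and U-2 OS. COL6A1 measured 69.2, 72.7, 75.2 and 52.97 RPKM for U-251MG, 0.629 to 0.841 for A-431 and 27.4, 27.2, 31.4 and 26.7 for U-2 OS in total RNA. The cytoplasmic libraries of this gene held 0.98, 0.734, 0.951 and 1.41 RPKM for A-431, 97.3, 106, 90.05 and 90.2 for U-251MG and 35.4, 37.5 and 33.2 for U-2 OS. COL6A2, its neighbour on chromosome 21, measured 2.18, 2.34, 2.14 and 1.81 RPKM for A-431, 35.1, 35.5, 41.5 and 32.9 for U-2 OS and 43.6, 50.98, 57.6 and 34.4 for U-251MG in total RNA. Cytoplasmic RNA gave 82.2, 86.2, 60.2 and 60.7 RPKM for U-251MG, 2.25, 2.199, 2.41 and 3.24 for A-431 and 46.5, 52.3 and 45.2 for U-2 OS. COL6A1 was higher in U-251MG than in U-2 OS by 1.25 ± 0.09 SE (edgeR, adjusted p = 3.53e-11), whereas COL6A2 overlapped between these lines, at 0.36 ± 0.13 SE (edgeR, adjusted p = 0.0263). COL6A3, the long chain, measured 0.0242 to 0.0437 RPKM for A-431, 37.7, 45.9, 42.8 and 41.4 for U-251MG and 16.97, 14.2, 17.1 and 12.9 for U-2 OS in total RNA. In the cytoplasmic extract the values were 0.00934 to 0.0504 RPKM for A-431, 16.8, 18.6 and 15.2 for U-2 OS and 37.3, 43.2, 39.7 and 41.05 for U-251MG. U-251MG was above U-2 OS by 1.45 ± 0.08 SE (edgeR, adjusted p = 3.67e-14), and A-431 was near 0. The ratio of COL6A1 to COL6A2 was 0.778 ± 0.0232 for U-2 OS and 1.47 ± 0.126 in U-251MG total RNA (SD, n = 4), without overlap (exact permutation p = 0.0286, 0.0531 adjusted). The ratio of COL6A3 to COL6A1 was 0.543 ± 0.0571 and 0.632 ± 0.106, which overlapped (exact permutation p = 0.143). In U-251MG cytoplasmic RNA this ratio was 0.421 ± 0.0327 (SD, n = 4), below total RNA without overlap (exact permutation p = 0.0286, 0.0531 adjusted). In U-2 OS cytoplasmic RNA it was 0.476 ± 0.0199 (SD, n = 3), with overlap (exact permutation p = 0.114). In A-431, COL6A2 stayed at 2.12 ± 0.225 RPKM and COL6A1 at 0.698 ± 0.0984, with 0.0327 ± 0.00897 for COL6A3.

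Among the network and fibril-associated collagens, COL8A1, a short-chain collagen of vessel walls and the cornea, was highest in U-251MG. It measured 34.5, 34.8, 28.8 and 38.4 RPKM for U-251MG, 0.324 to 0.379 for A-431 and 6.7, 7.05, 7.24 and 6.63 for U-2 OS in total RNA. Libraries labelled cytoplasmic had 0.279 to 0.333 RPKM for A-431, 24.7, 25.4, 30.2 and 30.2 for U-251MG and 7.75, 6.98 and 7.78 for U-2 OS. The lines did not overlap, and U-251MG exceeded U-2 OS by 2.30 ± 0.08 SE (edgeR, adjusted p = 2.18e-19). COL8A2 averaged at most 0.962 RPKM and COL10A1, the hypertrophic cartilage chain, at most 0.136 RPKM in any group. COL12A1, which decorates type I fibrils, measured 0.0171 to 0.0326 RPKM for A-431, 58.7, 41.5, 46.8 and 47.95 for U-2 OS and 37.8, 37.05, 38.02 and 35.5 for U-251MG in total RNA. The other fraction held 36.4, 33.5, 33.5 and 30.7 RPKM for U-251MG, 0.0175 to 0.0426 for A-431 and 52.8, 54.5 and 55.4 for U-2 OS. It was abundant in both U-2 OS and U-251MG, and A-431 was lower than U-2 OS by a log2 ratio of -10.90 ± 0.15 SE (edgeR, adjusted p = 8.76e-27). COL16A1 was highest in U-2 OS. It measured 0.0706 to 0.135 RPKM for A-431, 0.373 to 0.626 for U-251MG and 12.7, 13.6, 16.8 and 13.2 for U-2 OS in total RNA. Values in cytoplasmic RNA were 0.177 to 0.19 RPKM for A-431, 17.1, 20.8 and 17.03 for U-2 OS and 0.835, 1.015, 0.993 and 1.04 for U-251MG. U-251MG was below U-2 OS by a log2 ratio of -4.74 ± 0.13 SE (edgeR, adjusted p = 2.37e-20). COL9A2, a chain of the cartilage collagen type IX, was lowest in U-251MG. It measured 1.22, 0.916, 0.718 and 0.683 RPKM for U-251MG, 4.25, 4.49, 4.59 and 4.65 for A-431 and 5.95, 8.22, 9.72 and 7.39 for U-2 OS in total RNA. The cytoplasmic libraries of this gene held 6.79, 6.26, 6.003 and 7.75 RPKM for A-431, 1.85, 1.46, 1.46 and 1.47 for U-251MG and 10.6, 10.8 and 8.78 for U-2 OS. A-431 was above U-251MG by 2.39 ± 0.16 SE (edgeR, adjusted p = 2.77e-12). Its partner COL9A3 averaged 1.87 ± 0.455 RPKM in A-431 and 0.22 ± 0.1 in U-2 OS total RNA, and COL14A1 reached 3.17 ± 0.262 RPKM in U-251MG with 2 counts over the 4 A-431 total RNA libraries.

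The anchoring and transmembrane collagens of the epidermis went in opposite directions. COL17A1, the transmembrane collagen of hemidesmosomes, at chr10:105791044-105845638 on GRCh37, measured 16.01, 15.6, 14.4 and 15.1 RPKM for A-431, 0.721 to 0.889 for U-2 OS and 1.02, 1.02, 0.484 and 1.299 for U-251MG in total RNA. Cytoplasmic RNA gave 0.29, 0.779, 1.21 and 1.19 RPKM for U-251MG, 13.9, 13.8, 13.4 and 13.4 for A-431 and 0.794 to 0.901 for U-2 OS. A-431 was above both other lines in every library, by 4.23 ± 0.18 SE (edgeR, adjusted p = 6.21e-12) against U-2 OS. COL7A1, which forms the anchoring fibrils under the epidermis, was by contrast lowest in A-431. It measured 0.0261 to 0.0379 RPKM for A-431, 14.1, 13.7, 12.4 and 7.81 for U-251MG and 0.919, 1.04, 1.497 and 0.892 for U-2 OS in total RNA. In the cytoplasmic extract the values were 0.0947 to 0.118 RPKM for A-431, 1.89, 2.14 and 1.62 for U-2 OS and 29.3, 29.7, 25.9 and 28.01 for U-251MG. A-431 held 6 to 11 counts per total RNA library, and the log2 ratio to U-251MG was -8.48 ± 0.34 SE (edgeR, adjusted p = 6.89e-10). COL13A1, another transmembrane collagen, measured 20.6, 19.9, 16.9 and 19.9 RPKM for U-251MG, 0.297 to 0.435 for A-431 and 2.35, 3.12, 2.62 and 2.54 for U-2 OS in total RNA. Libraries labelled cytoplasmic had 0.412 to 0.619 RPKM for A-431, 11.9, 18.9, 21.7 and 19.4 for U-251MG and 2.64, 2.35 and 2.11 for U-2 OS. U-251MG exceeded U-2 OS by 2.86 ± 0.10 SE (edgeR, adjusted p = 5.42e-19). COL18A1, the source of endostatin, stayed low. It measured 0.698 to 0.927 RPKM for A-431, 1.105, 1.63, 2.03 and 1.28 for U-2 OS and 2.32, 2.498, 2.86 and 1.82 for U-251MG in total RNA. The other fraction held 5.11, 5.104, 3.66 and 3.77 RPKM for U-251MG, 0.708 to 0.861 for A-431 and 1.99, 2.31 and 1.78 for U-2 OS. U-2 OS and U-251MG overlapped in total RNA. In GENCODE, 1563 exonic bases of COL18A1 are shared with SLC19A1 on the other strand. In counts made without strand, reads lying wholly in exons of both genes are set aside as ambiguous and counted for neither. COL15A1 averaged at most 0.384 RPKM in any group.

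The lysyl hydroxylases were expressed in every line. PLOD1, which hydroxylates helical lysines, measured 42.5, 48.4, 38.7 and 44.97 RPKM for A-431, 85.1, 87.7, 87.5 and 65.5 for U-251MG and 79.2, 78.7, 82.96 and 77.4 for U-2 OS in total RNA. Values in cytoplasmic RNA were 45.1, 45.6, 46.4 and 50.1 RPKM for A-431, 84.3, 89.01 and 87.2 for U-2 OS and 102, 107, 90.7 and 95.7 for U-251MG. It was lower in A-431 than in either other line, by a log2 ratio of -0.87 ± 0.08 SE (edgeR, adjusted p = 8.78e-10) against U-251MG, which is under the 2-fold limit. PLOD2, which acts on the lysines of the telopeptides that enter cross-links, was the most abundant of the enzymes in U-251MG. At chr3:145752926-145881512 on GRCh37, it measured 271, 253, 281 and 272 RPKM for U-251MG, 74.2, 77.1, 83.3 and 79.7 for A-431 and 64.4, 66.96, 59.2 and 67.9 for U-2 OS in total RNA. The cytoplasmic libraries of this gene held 56.2, 55.3, 51.2 and 42.5 RPKM for A-431, 189.9, 160.0, 182 and 168 for U-251MG and 45.2, 44.8 and 51.8 for U-2 OS. U-251MG was above the other lines in every library, by 2.05 ± 0.06 SE (edgeR, adjusted p = 5.38e-20) against U-2 OS, while A-431 and U-2 OS differed by 0.31 ± 0.06 SE (edgeR, adjusted p = 7.18e-05), less than 2-fold. PLOD3, which also adds glucose to hydroxylysine, measured 21.2, 24.8, 20.1 and 21.7 RPKM for A-431, 31.1, 30.6, 30.7 and 28.8 for U-2 OS and 52.4, 50.9, 52.6 and 41.4 for U-251MG in total RNA. Cytoplasmic RNA gave 61.2, 69.01, 55.8 and 57.7 RPKM for U-251MG, 25.04, 22.8, 23.2 and 26.01 for A-431 and 32.2, 30.4 and 29.4 for U-2 OS. A-431 was lower than U-251MG by a log2 ratio of -1.14 ± 0.08 SE (edgeR, adjusted p = 7.41e-13).

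The main prolyl 4-hydroxylase alpha subunits were within 2-fold between lines in total RNA. P4HA1 measured 32.5, 34.5, 35.9 and 33.3 RPKM for A-431, 37.99, 38.3, 41.2 and 39.04 for U-251MG and 22.2, 22.6, 23.1 and 24.7 for U-2 OS in total RNA. In the cytoplasmic extract the values were 27.1, 25.9, 23.7 and 22.5 RPKM for A-431, 19.6, 18.7 and 22.3 for U-2 OS and 29.5, 26.9, 27.8 and 29.4 for U-251MG. P4HA2 measured 15.4, 18.6, 16.6 and 17.01 RPKM for U-251MG, 13.3, 14.9, 14.1 and 14.5 for A-431 and 20.9, 20.8, 21.9 and 20.9 for U-2 OS in total RNA. No pair of lines differed by 2-fold in either gene, and the log2 ratio of A-431 to U-2 OS was 0.58 ± 0.06 for P4HA1 and -0.56 ± 0.06 for P4HA2. The cytoplasmic values of P4HA2 were 11.3, 11.96, 11.9 and 13.1 RPKM for A-431, 14.9, 17.3, 16.6 and 17.3 for U-251MG and 20.99, 21.5 and 21.6 for U-2 OS. P4HA3 averaged at most 0.554 RPKM and had 0 counts in the 4 A-431 total RNA libraries, against which U-2 OS was at least 36.9-fold higher.

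Of 5 lysyl oxidases, 4 were called lower in A-431 than in U-2 OS in total RNA, where 22.4% of all genes were. LOX, the founding enzyme of the family, measured 0.396 to 0.565 RPKM for A-431, 16.1, 16.7, 16.1 and 17.2 for U-2 OS and 16.3, 17.3, 20.9 and 15.4 for U-251MG in total RNA. Libraries labelled cytoplasmic had 16.1, 13.6, 12.8 and 12.8 RPKM for U-251MG, 0.446 to 0.603 for A-431 and 13.7, 13.6 and 15.96 for U-2 OS. U-2 OS and U-251MG overlapped, and A-431 was lower than U-2 OS by a log2 ratio of -5.03 ± 0.11 SE (edgeR, adjusted p = 3.77e-23). LOXL1, known from elastic fibres, measured 2.62, 2.44, 2.15 and 2.102 RPKM for A-431, 17.6, 21.4, 21.8 and 16.4 for U-251MG and 27.03, 28.7, 34.3 and 28.6 for U-2 OS in total RNA. The other fraction held 2.35, 2.88, 2.97 and 2.94 RPKM for A-431, 38.5, 44.9 and 39.4 for U-2 OS and 33.5, 31.9, 29.1 and 28.9 for U-251MG. The lines kept the order U-2 OS, U-251MG, A-431 in both fractions, with A-431 lower than U-2 OS by a log2 ratio of -3.65 ± 0.11 SE (edgeR, adjusted p = 7.36e-20). LOXL2, which cross-links type IV collagen, differed less. It measured 74.6, 74.8, 73.9 and 60.5 RPKM for U-251MG, 25.9, 27.2, 25.4 and 25.9 for A-431 and 41.6, 39.3, 41.4 and 39.2 for U-2 OS in total RNA. Values in cytoplasmic RNA were 22.4, 22.9, 23.9 and 27.3 RPKM for A-431, 77.95, 89.1, 75.05 and 75.04 for U-251MG and 42.3, 43.9 and 41.6 for U-2 OS. A-431 was lower than U-2 OS by a log2 ratio of -0.61 ± 0.07 SE (edgeR, adjusted p = 8.39e-09), under the 2-fold limit. LOXL4 was highest in U-2 OS. It measured 0 to 0.067 RPKM for A-431, 45.2, 46.4, 49.9 and 44.4 for U-2 OS and 2.5, 2.34, 3.11 and 2.25 for U-251MG in total RNA. The cytoplasmic libraries of this gene held 5.98, 3.82, 3.199 and 2.902 RPKM for U-251MG, 0.0095 to 0.0954 for A-431 and 51.7, 57.1 and 52.8 for U-2 OS. U-251MG was below U-2 OS by a log2 ratio of -4.20 ± 0.11 SE (edgeR, adjusted p = 1.01e-19) and A-431 by -10.20 ± 0.19 SE (edgeR, adjusted p = 8.74e-23). The A-431 total RNA libraries held 0 to 6 counts of LOXL4 each. LOXL3 averaged 3.28 ± 0.11 RPKM in U-2 OS and 0.855 ± 0.0137 in A-431 total RNA, with 936 of its exonic bases shared with HTRA2 on the other strand.

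SERPINH1, the collagen chaperone, was highest in U-2 OS. It measured 30.9, 36.2, 28.2 and 27.9 RPKM for A-431, 55.1, 62.3, 68.8 and 50.2 for U-251MG and 187, 175, 198 and 182 for U-2 OS in total RNA. Cytoplasmic RNA gave 32.5, 32.9, 33.8 and 34.9 RPKM for A-431, 235, 239 and 228 for U-2 OS and 91.1, 84.7, 68.2 and 71.2 for U-251MG. The lines did not overlap in either fraction, U-251MG was below U-2 OS by a log2 ratio of -1.66 ± 0.09 SE (edgeR, adjusted p = 1.34e-13), and A-431 was lower than U-2 OS by a log2 ratio of -2.57 ± 0.09 SE (edgeR, adjusted p = 6.19e-17). U-2 OS and U-251MG had summed chain levels within 1 SD of each other, as given above.

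Genes that act beside the members were counted in the same tests, from lists chosen with earlier results known. The shares of all genes called were 38.8% for A-431 against U-2 OS (16.4% higher and 22.4% lower) and 35.7% for U-251MG against U-2 OS, and lists this short are given as counts only. Of 6 other collagen genes tested in total RNA, 2 were called higher and 3 lower in A-431 than in U-2 OS, and COL22A1, at 2.08 ± 0.370 RPKM in U-2 OS, had 0 counts in the total RNA of the other lines. Of 17 further folding, glycosylation and export genes tested in total RNA, 8 were called between A-431 and U-2 OS (1 higher, 7 lower in A-431) and 5 between U-251MG and U-2 OS (all higher in U-251MG). P4HB, the shared beta subunit of prolyl 4-hydroxylase, averaged 343 ± 15.5 RPKM in U-2 OS, 385 ± 43.8 for U-251MG and 358 ± 16.5 for A-431 (SD, n = 4). PPIB, a prolyl isomerase, averaged 192 ± 8.91 RPKM in U-2 OS and 105 ± 6.29 for A-431, a log2 ratio of -0.85 ± 0.06 that did not reach 2-fold. Of 9 processing genes, 6 were lower in A-431 than in U-2 OS and none was higher. PCOLCE, which enhances the trimming of procollagen, averaged 48.1 ± 3.42 RPKM in U-2 OS, 1.09 ± 0.4004 for U-251MG and 0.861 ± 0.249 for A-431. Of 11 breakdown genes, 6 were lower in A-431 than in U-2 OS and none was higher, among them MMP2, a gelatinase, at 76.3 ± 4.66 against 1.59 ± 0.144 RPKM. Of 6 collagen receptors, 2 were higher and 4 lower in A-431 than in U-2 OS. ITGA2, an integrin subunit of epithelia, averaged 34.3 ± 2.03 RPKM in A-431 and 4.36 ± 0.433 for U-2 OS, and DDR2, a receptor for fibrillar collagen, 0.0432 ± 0.0166 and 3.11 ± 0.270.

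Between the fractions, few members differed, and the changes were small. A member was called at an adjusted p under 0.001 with no limit on size. In U-2 OS, 5 of 43 members were called, 1 higher and 4 lower in total RNA, and 8.36% of all genes were called (4.75% higher and 3.61% lower). In U-251MG, 8 of 40 were called, 2 higher and 6 lower, against 12.9% of all genes (5.93% and 6.98%). In A-431, 7 of 31 were called, 4 higher and 3 lower, against 19.7% of all genes (10.2% and 9.51%). The medians over the members were -0.19, -0.32 and -0.09 on the log2 scale, and over all genes 0.00, 0.00 and -0.01. Without the U-2 OS total RNA library 3, 14 members were called in U-2 OS, and without the U-251MG cytoplasmic library 18, 1 was called in U-251MG. At an unadjusted p under 0.05, called members included, 3 of 43, 4 of 40 and 6 of 31 members were higher, in the same order of lines. Lower were 19 of 43, 22 of 40 and 8 of 31. Of all genes, 20.3%, 27.3% and 28% were higher and 19.1%, 28.3% and 28.7% lower.

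PLOD2 was the only member called in all 3 lines. Its level was 78.6 ± 3.88 RPKM in total against 51.3 ± 6.24 in cytoplasmic RNA for A-431, 269 ± 11.6 against 175 ± 13.5 for U-251MG and 64.6 ± 3.92 against 47.2 ± 3.92 for U-2 OS (SD, n = 4, or 3 for U-2 OS cytoplasmic RNA). In every line the total RNA libraries lay above the cytoplasmic libraries without overlap. The log2 ratios were 0.46 ± 0.06 SE (edgeR, adjusted p = 5.25e-07) for U-2 OS, 0.60 ± 0.07 SE (edgeR, adjusted p = 0.000112) for U-251MG and 0.63 ± 0.07 SE (edgeR, adjusted p = 5.18e-06) for A-431. P4HA1 was higher in total RNA in U-251MG, by 0.44 ± 0.06 SE (edgeR, adjusted p = 0.000212), and in A-431, by 0.47 ± 0.06 SE (edgeR, adjusted p = 1.81e-05), again without overlap, and gave 0.20 ± 0.06 SE (edgeR, adjusted p = 0.0116) for U-2 OS.

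The members called lower in total RNA were as follows. In U-2 OS they were COL6A1 at -0.32 ± 0.06 SE (edgeR, adjusted p = 4.87e-05), COL6A2 at -0.40 ± 0.07 SE (edgeR, adjusted p = 0.000146), LOXL1 at -0.46 ± 0.07 SE (edgeR, adjusted p = 6.33e-05) and SERPINH1 at -0.33 ± 0.05 SE (edgeR, adjusted p = 6.92e-06). In U-251MG they were COL7A1 at -1.25 ± 0.17 SE (edgeR, adjusted p = 0.000431), COL18A1 at -0.92 ± 0.16 SE (edgeR, adjusted p = 0.000746), COL16A1 at -0.90 ± 0.17 SE (edgeR, adjusted p = 0.000948), COL1A1 at -0.85 ± 0.15 SE (edgeR, adjusted p = 0.000995), LOXL1 at -0.69 ± 0.10 SE (edgeR, adjusted p = 0.000228) and COL27A1 at -0.67 ± 0.12 SE (edgeR, adjusted p = 0.000999). The total RNA libraries lay below the cytoplasmic ones without overlap for each of these members in these lines. In A-431 they were COL7A1 at -1.68 ± 0.26 SE (edgeR, adjusted p = 6.15e-05), COL27A1 at -0.67 ± 0.12 SE (edgeR, adjusted p = 0.000322) and COL9A2 at -0.56 ± 0.09 SE (edgeR, adjusted p = 6.26e-05), also without overlap. The COL7A1 value in A-431 rested on 6 to 11 counts per total and 27 to 32 counts per cytoplasmic library. Each of these calls was lost in some repeats under other settings. In U-251MG, of 16 repeats, COL16A1 was lost in 12, COL7A1 in 10, COL27A1 in 9, COL1A1 and COL18A1 in 8 each and LOXL1 in 5. In U-2 OS, of 16 repeats, COL6A2 was lost in 6, COL6A1 in 5 and LOXL1 and SERPINH1 in 4 each. In A-431, of 15 repeats, COL27A1 was lost in 5, COL7A1 in 3 and COL9A2 in 2.

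Base composition moved with these ratios. Over the members tested, Pearson's r between the log2 ratio of total to cytoplasmic RNA and the GC content of the transcript was -0.82 for U-251MG (40 genes), -0.61 for A-431 (31 genes) and -0.52 for U-2 OS (43 genes). Over all genes with a GC value it was -0.70, -0.59 and -0.48. These are correlations across genes of the same libraries, which are not independent replicates. PLOD2 and P4HA1, higher in total RNA, had 37.7% and 39.7% GC, and LOXL1, COL7A1 and COL18A1, lower in total RNA, 67.01%, 64.8% and 67.2%. The chains compared as ratios differed too: COL4A1 and COL4A2 had 55.2% and 61.8%, COL1A1 and COL1A2 61.5% and 54.5%. COL6A3 and COL6A1 had 53.1% and 63.5%. Whether GC content accounts for the shifts of chain ratios between fractions was not tested. The libraries differed in the same sense as a whole. The median log2 level of genes above 60% GC minus that of genes below 40% was -2.94 to -2.39 in U-251MG total and -1.93 to -1.39 in cytoplasmic RNA, -2.29 to -1.86 and -1.47 to -1.16 for A-431, and -1.66 to -1.35 and -1.26 to -0.98 for U-2 OS. When GC content entered the fit as an offset, PLOD2 alone remained called in U-2 OS, at 0.24 (adjusted p = 0.000199), and none of the 8 members in U-251MG, where PLOD2 gave 0.21 (edgeR, adjusted p = 0.0639). On flow cell A alone, 1 and 0 members were called in U-2 OS and U-251MG, with PLOD2 at 0.50 and 0.60. These fits held 4 total RNA libraries of each line against 1 cytoplasmic library of U-2 OS, assumed to vary like the others, and 2 of U-251MG.

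**Figure D4:**
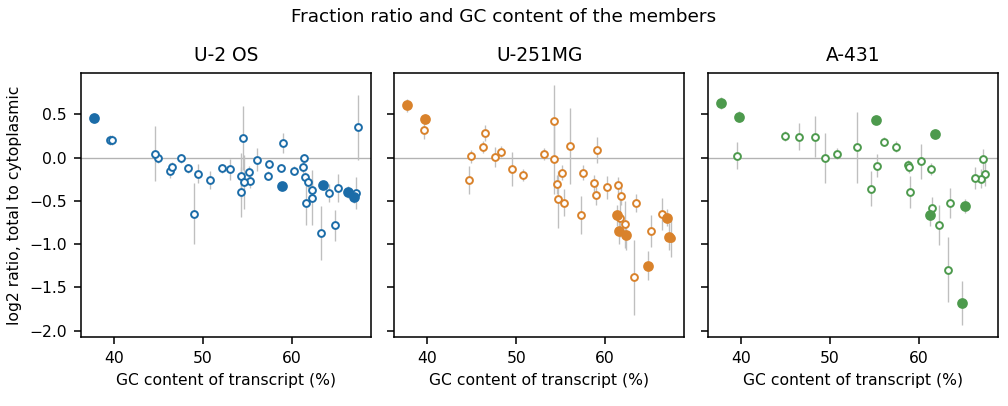
Log2 ratio of total to cytoplasmic RNA (bars: SE) against the GC content of the main transcript for the members tested in each line, filled where called at an adjusted p under 0.001. The ratios fall with GC content in each line, with r of -0.52, -0.82 and -0.61, and the filled points for COL4A1 and COL4A2 for A-431, at 55.2% and 61.8% GC, lie above their neighbours.

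COL4A1 and COL4A2 in A-431 lay above this relation, and they were not the only members to do so. In A-431, COL4A1 was higher in total RNA by 0.44 ± 0.05 SE (edgeR, adjusted p = 7.85e-06) and COL4A2 by 0.27 ± 0.06 SE (edgeR, adjusted p = 0.000768), with no overlap between the fractions. With the GC offset their ratios were larger, 0.64 (edgeR, adjusted p = 3.71e-08) and 0.65 (adjusted p = 1.35e-08). The offset was estimated from the same libraries and raises the ratios of GC-rich genes, so this growth is no separate evidence about the 2 genes. The COL4A2 call itself was lost in 8 of 15 repeats under other settings, with values from 0.24 to 0.65. The offset called 7 members in A-431, all higher in total RNA, among them members not called without it. Of the 7 calls without it, 3 held, these 2 and PLOD2 at 0.33 (edgeR, adjusted p = 0.000121), while COL7A1 gave -1.30 (adjusted p = 0.00151). In the other lines the same genes were not called and had negative ratios, COL4A1 with -0.16 ± 0.07 for U-2 OS and -0.17 ± 0.09 for U-251MG, and COL4A2 with -0.28 ± 0.07 and -0.44 ± 0.11. The difference between lines was tested as an interaction over all 6 groups, with calls at an adjusted p under 0.05. For A-431 against U-2 OS, 2 of 44 members were called, both higher, COL4A1 by 0.59 ± 0.11 SE (edgeR, adjusted p = 0.00241) and COL4A2 by 0.54 ± 0.13 SE (edgeR, adjusted p = 0.019), where 2.12% of all genes were called. For A-431 against U-251MG, the same 2 of 44 were called, COL4A1 by 0.58 ± 0.11 SE (edgeR, adjusted p = 0.00974) and COL4A2 by 0.68 ± 0.12 SE (edgeR, adjusted p = 0.0101), where 0.16% of all genes were called. All A-431 cytoplasmic libraries were on the other flow cell than the total RNA libraries, so fraction and flow cell cannot be told apart in that line.

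**Figure D5:**
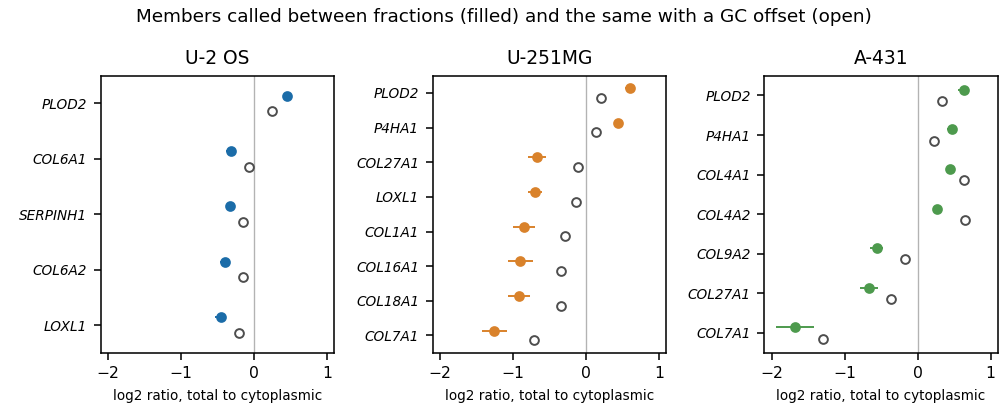
Log2 ratio of total to cytoplasmic RNA for the members called in each line (filled points, bars: SE) and for the same members with an offset for transcript GC content (open points). The ratios shrank toward 0 with the offset except for COL4A1 and COL4A2 for A-431, which grew from 0.44 to 0.64 and from 0.27 to 0.65. The offset raises ratios of GC-rich genes and lowers those of GC-poor ones, so these directions follow from sign and GC content.

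For U-251MG against U-2 OS, 1 of 44 members was called in the interaction, COL8A1 by 0.43 ± 0.11 SE (edgeR, adjusted p = 0.0408), where 1.67% of all genes were called. COL8A1 was at 34.1 ± 3.999 RPKM in total and 27.6 ± 2.99 in cytoplasmic RNA of U-251MG, and at 6.91 ± 0.287 and 7.51 ± 0.453 for U-2 OS (SD), with overlap between the fractions in each line. The call was lost in 12 of 22 repeats of the fit under other settings, most of them fits that each left out 1 library. The 3 interaction tests share groups of libraries. Among the lists of genes that act beside the members, the fraction tests called 0 to 4 genes per list and line, of 2 to 17 tested. The list of folding, glycosylation and export genes had the most calls, 4 of 16 for A-431 and 2 of 17 for each other line. Every other list had 0 or 1 call per line. The background share of calls was 19.7% for A-431, 12.9% for U-251MG and 8.36% for U-2 OS. Whether any of these short lists departs from that share was not tested.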

How the data were processed

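Polyadenylated RNA of whole cells and of cytoplasmic extracts from 3 cell lines was sequenced in 24 libraries. The authors aligned reads to hg19 (GRCh37) with TopHat 1.1.4, sorted them with SAMtools 0.1.8 and deposited whole-number gene counts made with HTSeq 0.4.6 without regard to strand, and RPKM values made with rpkmforgenes. Reads not assigned to a gene because they did not lie wholly within its exons, such as intronic or intergenic reads (14.2% to 21.9% per library), were left out of library sizes and tests.

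The deposited RPKM values summed to 3280033 to 3698101 per library and were 2.23 to 84.4 times values recomputed per transcript length, so they were used only within a gene, in the limma alternative on log2(RPKM + 0.1). Levels in the text are CPM of TMM-scaled gene counts per kilobase of the main GENCODE transcript, and this choice was made after the values were seen. Per-library values are given for members at 10 RPKM or more in any group and for members called between fractions, 30 of 44 genes. From each list of neighbouring genes, some of the 4 most expressed tested genes are named. The members and lists were chosen with earlier results of these data known.

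Counts were tested with edgeR 4.0.16 in R 4.3.3 (TMM, filterByExpr, robust quasi-likelihood test, Benjamini-Hochberg adjustment over all genes tested), with thresholds of 0.001 between fractions, 0.001 and 2-fold between lines, and 0.05 for interactions. The scripts were tested on simulated data. Alternatives were DESeq2 1.42.0, RLE size factors, no filter on low counts, limma 3.58.1, 1 model over 6 groups, an offset over 10 bins of transcript GC content, flow cell A alone, all deposited U-2 OS cytoplasmic libraries, and leaving out each library. The GC offset for the interactions and a replicate block by read table number were added after the values were seen. Promoter sequences came from RefSeq on GRCh38.p14, where 33 of 44 members matched, and GRCh37 coordinates of genes came from GENCODE.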

Additional observations from a re-analysis of the deposited data

Results flagged for a closer look

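Of 111 groups of 4 libraries examined, 9 held a library far from the other 3 for its gene, and chance gives about 1 in 20. The groups share libraries across genes and are not independent of each other. In U-251MG total RNA, library 8 was low for PLOD1 (65.5 RPKM, others 85.1 to 87.7), PLOD3 (41.4, others 50.9 to 52.6) and LOXL2 (60.5, others 73.9 to 74.8), and library 6 was high for COL5A2 (47.1, others 40.3 to 41.2). Library 8 was also the lowest of this group in the level of genes above 60% GC minus that of genes below 40%, at -2.94 against -2.53 to -2.39. A link between these values was not tested. In U-2 OS total RNA, library 3 was high for COL6A1 (31.4, others 26.7 to 27.4) and P4HA2 (21.9, others 20.8 to 20.9), and library 1 was low for COL27A1 (2.71, others 3.02 to 3.08). In the cytoplasmic libraries, COL9A2 was high in U-251MG library 17 (1.85, others 1.46 to 1.47) and LOXL1 low in A-431 library 21 (2.36, others 2.88 to 2.97).

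The fraction ratio differed between lines for 3 members by the interaction test. The log2 difference between A-431 and U-2 OS was 0.59 for COL4A1 and 0.54 for COL4A2, and between A-431 and U-251MG 0.58 and 0.68. For COL8A1 it was 0.43 between U-251MG and U-2 OS.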

How the results depend on the processing

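No call of a member changed direction under any alternative run. Between lines, the counts of members called stayed within 1.5 times of those given, and of 2406 repeats of single line calls 2359 were kept and 47 lost. The calls between fractions were less stable, with 212 of 313 repeats kept, and those of the interactions 94 of 110. Each of the 20 calls between fractions was lost at least once. In U-2 OS (5 members called), 13 were called with no filter on low counts, 0 with limma, 1 with 1 model over 6 groups, 1 with the GC offset, 1 on flow cell A (4 total RNA libraries against 1 cytoplasmic library, assumed to vary like the others) and 4 to 14 when 1 library was left out. In U-251MG (8 called), the counts were 0 with limma, 15 with 1 model, 0 with the GC offset, 0 on flow cell A (4 against 2) and 1 to 8 with a library left out. In A-431 (7 called) they were 0 with limma and 5 to 8 with a library left out. With limma, 0, 3 and 255 of all genes were called in the 3 lines. The interaction of A-431 and U-2 OS (2 called) gave 4 with DESeq2, 1 with limma, 4 with the GC offset and 1 to 2 with a library left out. That of A-431 and U-251MG (2 called) gave 0 with limma and 2 to 2 with a library left out. That of U-251MG and U-2 OS (1 called) gave 3 with DESeq2, 4 with no filter, 0 with limma and 0 to 3 with a library left out. The cause of these changes was not tested. The labels share no replicate number between groups, but the read table of the study does. Same-numbered libraries of the fractions deviated from their group means with r of 0.06 to 0.14 in U-2 OS (3 pairs), -0.38 to 0.30 for U-251MG and 0.02 to 0.21 for A-431 (4 pairs each), so the numbers were not taken to pair the samples, although in U-2 OS every library correlated best with its own number. With these numbers as a replicate block, chosen after seeing the data, 16, 8 and 9 members were called between the fractions, in the same order of lines, 5, 7 and 7 of the calls without the block among them, and 3, 3 and 4 in the interactions, where COL8A1 was not called (edgeR, adjusted p = 0.0504).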
